A study of Mus musculus with 2 samples.

Results

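The cytosolic ribosomal proteins are the protein part of the ribosome that translates nuclear-encoded messengers, and 1 of them, Rpl22, carries the tag by which the RNA studied here was captured. The members were taken by symbol: every probe set that the platform annotation gives to a single gene whose symbol begins Rpl, Rps, Rplp or Rpsa in the form used for cytosolic ribosomal proteins, with pseudogenes left out. This gave 67 genes, read by 108 probe sets, of 22180 named genes read by 23521 probe sets. The study pulled down haemagglutinin-tagged ribosomes from D2Cre::RiboTag mice and measured the RNA on them with whole-transcript arrays. In RiboTag mice, Cre recombinase exchanges the last exon of Rpl22 for a copy that ends in the tag, and here Cre is driven by Drd2, the dopamine D2 receptor gene. The 2 samples are technical replicates of medial prefrontal cortex from a pool of 5 adult mice, taken to be the same pool, and they form 1 group. No unprecipitated RNA, mock precipitation or mouse without Cre was analysed here, so a signal is neither an enrichment nor proof that the captured cells express the gene.

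Signals are given on a log2 scale, which was inferred from the values, with replicate 1 before replicate 2, and an error is the SD over the 2 technical arrays. There are no biological replicates and no p-value is given. Genes for olfactory and vomeronasal receptors served as background, since cortex should hardly express them. A gene, taken as the mean of its probe sets, was called above background where both arrays exceeded the 95th percentile of those 1394 genes, which was 5.61 for replicate 1 and 5.66 for replicate 2. A stricter threshold, the 95th percentile of 32 testis, liver and muscle genes, stood at 7.26 and 7.06, and it is called the out-of-tissue threshold. Probe sets bind with different strength, so genes are set against these thresholds and not ranked against each other. Marker genes were read beside the label of the captured cells. Drd2 gave 10.78 and 10.70, and all 12 measured markers of Drd2 cells and neurons passed the out-of-tissue threshold. All 16 measured markers of glia and endothelium were above background as well, with 7 over the out-of-tissue threshold, among them Mbp of oligodendrocytes with 9.13 and 9.19. Of the 12, Drd2, Penk and Gpr6 were listed for Drd2 cells, and Adora2a, also listed, was not analysed here. Neuronal markers would pass in RNA of the whole cortex too, so these values cannot show that Drd2 cells were captured. The part of other cells' RNA in the ribosomal protein signals was not tested. In pooled tissue, fewer cells of a type and less RNA per cell cannot be told apart.

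A ribosome has a large subunit, which joins amino acids and holds the tunnel through which the new protein leaves, and a small subunit, which reads the messenger. Most messengers for ribosomal proteins begin with a C followed by an unbroken run of pyrimidines, the terminal oligopyrimidine motif. Through it the kinase mTOR and the RNA-binding protein Larp1 control how many of these messengers are loaded on ribosomes. Ribosomal protein genes are also known for their many processed pseudogenes, intronless copies of the messenger scattered over the genome, and such copies share most of their sequence with the messenger.

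The starts of a few members are shown first, because the oligopyrimidine run is the sequence feature these messengers are known for. Each is 60 bases from the RefSeq promoter table of GRCm38.p6, with 40 bases before the annotated start and 20 from the start on, written 5′ to 3′ on the gene's strand. Capitals mark the pyrimidine run at, or within 5 bases of, the annotated start. Rps6 is the small subunit protein that the mTOR pathway phosphorylates, Rpl15 and Rps10 are genes of Diamond-Blackfan anaemia, Rpl38 is a large subunit protein, and Rplp2 is a stalk protein. Rpl22 has a start from each of its 2 annotated windows, and Rpl22l1 is its paralogue.
Rps6, chr4:86857348-86857407, minus strand: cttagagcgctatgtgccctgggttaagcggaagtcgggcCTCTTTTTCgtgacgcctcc
Rpl15, chr14:18270967-18271026, minus strand: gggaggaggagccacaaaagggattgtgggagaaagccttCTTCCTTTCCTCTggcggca
Rpl38, chr11:114668540-114668599, plus strand: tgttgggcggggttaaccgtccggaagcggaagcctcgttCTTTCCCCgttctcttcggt
Rps10, chr17:27635225-27635284, minus strand: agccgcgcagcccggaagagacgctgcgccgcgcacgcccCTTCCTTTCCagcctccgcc
Rplp2, chr7:141447611-141447670, plus strand: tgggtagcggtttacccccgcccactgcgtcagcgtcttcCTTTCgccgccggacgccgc
Rpl22l1, chr3:28805468-28805527, plus strand: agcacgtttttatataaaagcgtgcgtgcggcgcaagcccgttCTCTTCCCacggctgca
Rpl22, chr4:152325686-152325745, plus strand: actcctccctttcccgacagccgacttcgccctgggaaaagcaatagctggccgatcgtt
Rpl22, chr4:152324396-152324455, plus strand: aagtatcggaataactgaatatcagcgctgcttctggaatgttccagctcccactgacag

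The promoter table held 52 of the 67 members. An oligopyrimidine start, a C at the annotated start followed by at least 4 bases that are C or T, was found in 11 of these 52 (21.2%, exact binomial 95% interval 11.06 to 34.7). Over all genes of the table the share was 813 of 27025 (3.01%), and over named genes above background it was 2.92%. The members with such a start were Rpl14, Rpl15, Rpl28, Rpl32l, Rpl35, Rpl38, Rplp2, Rps10, Rps18, Rps27 and Rps6. The runs printed above have 9 bases in Rps6, 13 in Rpl15, 8 in Rpl38, 10 in Rps10 and 5 in Rplp2. The start of Rpl22 held no such run in either window, while that of Rpl22l1 held one of 8 bases that begins 3 bases after its annotated start. When a run was allowed to begin within 5 bases of the annotated start, 22 of 52 members (42.3%) had one, against 21.2% of all genes.

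The same was counted in related groups. None of 62 genes for mitochondrial ribosomal proteins had an oligopyrimidine start (0 of 62, exact upper limit 5.78%). Of 49 translation factor genes, whose messengers belong in part to the same class, 2 had one (4.08%, exact interval 0.50 to 13.98), and this interval overlaps that of the members. With runs within 5 bases of the start, the shares were 16 of 62 (25.8%, 15.53 to 38.5) for mitochondrial ribosomal proteins and 14 of 49 (28.6%, 16.58 to 43.26) for translation factors. Both intervals then overlap that of the members (42.3%, 28.73 to 56.8). The differences between groups were not tested. These intervals cover counting error alone and treat genes as independent, and an annotated start need not be the start used in these cells.

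**Figure D1:**
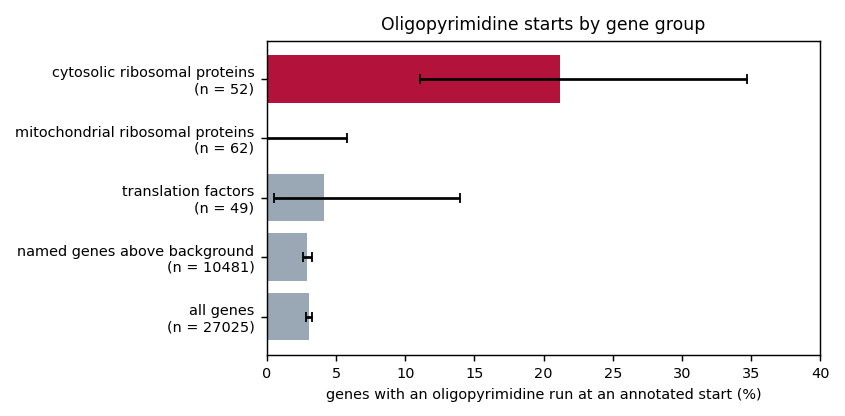
Share of genes, in percent, with an oligopyrimidine run at an annotated start, by gene group; bars are shares of the genes in the RefSeq promoter table and lines are exact 95% binomial intervals. The cytosolic ribosomal proteins stand at 21.2%, the mitochondrial ones at 0.0%, translation factors at 4.08% and all genes at 3.01%.

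Further letters were counted in the whole promoter window of 300 bases, on both strands, as motifs chosen after the data were seen. The letters CCGGAAG, which ETS family factors bind, lay in 23 of 52 members (44.2%), against 9.93% of all genes and 17.7% of named genes above background. The share was 37.1% for mitochondrial ribosomal proteins and 32.7% for translation factors. In the windows printed above, CCGGAAG can be read ahead of the start of Rpl38 and of Rps10. TATAAA, the letters of a TATA box, lay in 6 of 52 members (11.5%), against 15.7% of all genes and 9.01% of named genes above background, and Rpl22 and Rpl22l1 were among those 6. GGGCGG, which Sp1 binds, lay in 28 members (53.8%), against 38.2% of all genes and 66.9% of named genes above background. The motifs were searched independently and may overlap.

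The signals of members with and without such a start overlapped. Members with an oligopyrimidine start were above background in 9 of 11 cases and over the out-of-tissue threshold in 7, with a median of 7.55. Those with a window but no such start were above background in 36 of 41 cases and over the out-of-tissue threshold in 20, with a median of 7.26. Of all named genes 60.3% and 38.2% passed these thresholds. The difference between members with and without such a start was not tested. Rps6 gave 12.48 and 12.35, from a set that lies away from the gene as described below. Rplp2 gave 4.32 and 4.30 in its own set and was not above background, while a set it shares with Snora52 read 8.32 and 8.60. Whether signal goes with the length of the run was not tested. Rpl32l, with a run of 10 bases, gave 3.31 and 3.58, and Rpl14, with a run of 6, gave 10.44 and 10.43.

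Rpl22, the large subunit protein that carries the tag, had a modest signal. Its probe set, the only one naming it alone, read 6.71 on replicate 1 and 6.75 on replicate 2 (6.73 ± 0.03), which is 1.10 and 1.09 log2 units over the background thresholds. It passed a background set at the 99th percentile instead, which was 6.64 on both arrays, but not the out-of-tissue threshold. The probe set does not tell the tagged messenger from the untagged one, so this value says nothing of how much of Rpl22 was recombined. Its paralogue Rpl22l1, which can take its place in the ribosome, read 5.75 and 5.83. That is 0.14 and 0.17 units over background, and below the median of all probe sets (5.80 and 5.81) on replicate 1.

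Most of the 67 members gave signal, yet many of them by little. Above background were 59 of 67 (88.1%), against 60.3% of all named genes, and the members' median was 7.29 against 6.36. At the out-of-tissue threshold the count was 35 of 67 (52.2%), against 38.2% of all named genes. Of the large subunit proteins 32 of 35 were above background (median 7.78), and of the small subunit proteins 21 of 23 (median 7.60). Of the 9 paralogues and other genes outside the set of 80 standard proteins, 6 were (median 5.92).

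Mitochondrial ribosomal proteins and translation factors were measured on the same arrays, and their difference from the members was not tested. Of 71 mitochondrial ribosomal protein genes 70 were above background (98.6%) and 63 above the out-of-tissue threshold (88.7%), with a median of 8.36. Of 64 translation factor genes 60 were above background (93.8%) and 53 above the out-of-tissue threshold (82.8%), with a median of 8.75. These 64 were taken by symbol, Eif or Eef followed by a digit, so not each need be a translation factor. Eif4e, Eif4ebp1, Eif4ebp2 and Eef2 are among them and are counted again in lists further below. The shares and medians of the cytosolic members lay between those of these groups and those of all named genes.

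**Figure D2:**
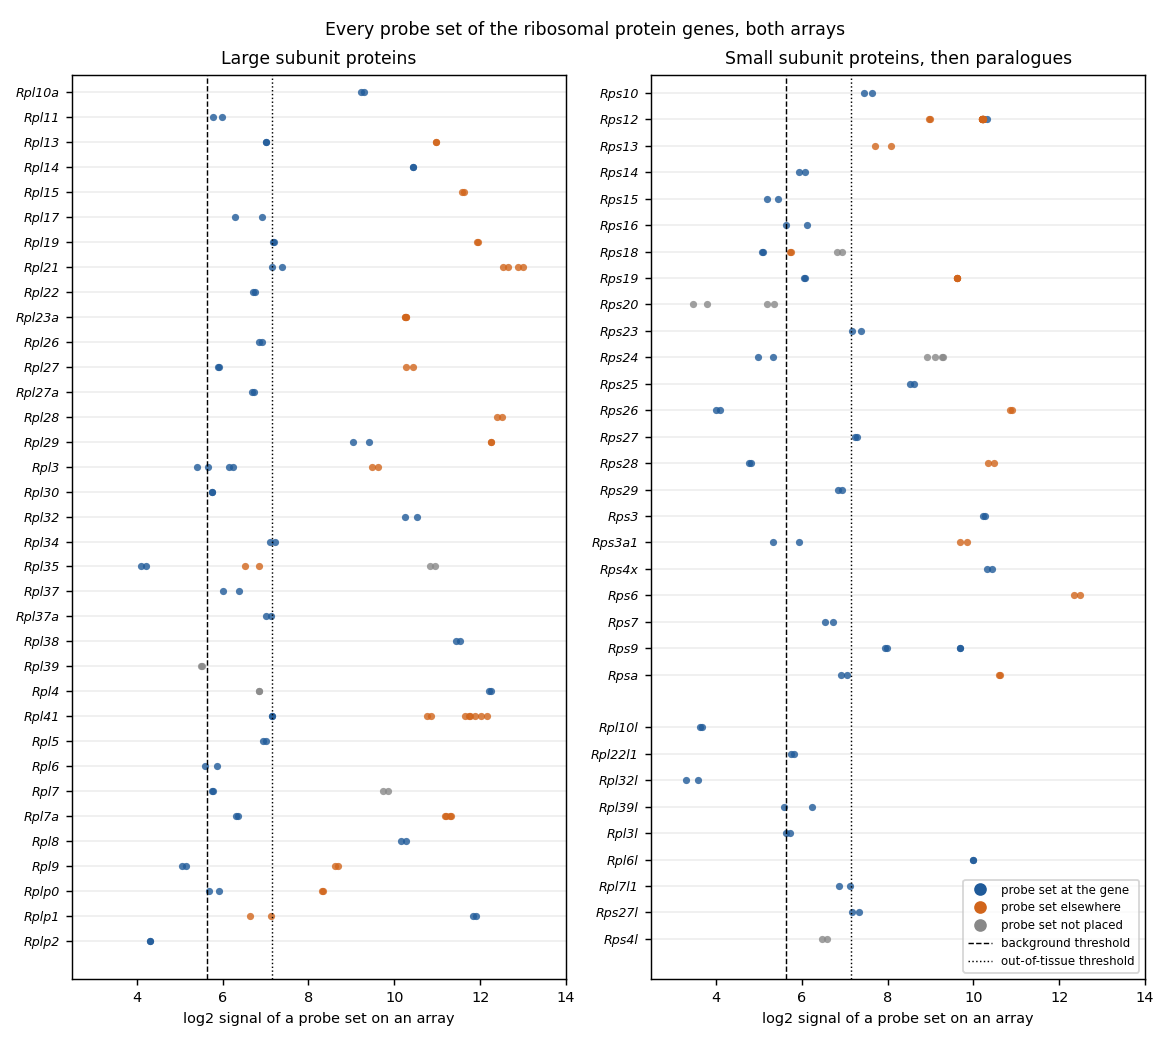
Log2 signal (horizontal axis) of every probe set of the 67 ribosomal protein genes, with a point for each array; blue points are probe sets at the gene, orange ones lie elsewhere in the genome and grey ones could not be placed. The dashed line is the background threshold and the dotted line the out-of-tissue threshold, each the mean over both arrays. Most blue points lie to the left of 8 and most orange ones to the right of 9.

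In the stalk, the lever that recruits elongation factors to the large subunit, the 3 measured members fell on different sides of background. Rplp0, which anchors the stalk, read 7.02 and 7.12 as the mean of sets at 5.8 and 8.335. Rplp1, which with Rplp2 forms its flexible arms, read 9.48 and 9.27 as the mean of sets at 11.865 and 6.885. Rplp2 itself, at 4.32 and 4.30, was below both thresholds on both arrays, although a probe set that it shares with the small nucleolar RNA gene Snora52 read 8.32 and 8.60. For Rplp2 the call thus depends on whether a shared set is counted.

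The 5S particle joins the large subunit as a unit, and its proteins also bind the p53 regulator Mdm2 when ribosome assembly fails. Rpl5 read 6.95 and 7.01, and Rpl11 read 5.99 and 5.78. Both were above background and neither passed the out-of-tissue threshold, and Rpl11 was below the median of all probe sets on replicate 2.

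Around the peptide exit tunnel 7 of 8 measured members were above background (87.5%, against 60.3% of all named genes). Over the out-of-tissue threshold were 3 of 8 (37.5%), near the 38.2% of all named genes. Of these 3, Rpl4 passed with a set at the gene. Rpl19 read 7.18 on average at the gene, short of that threshold, and Rpl23a has no set there. Rpl22, given above, is among the 8. Rpl4 lines the tunnel and read 9.55 and 9.52 as the mean of sets at 12.22 and 6.84. Rpl17, also in the wall, read 6.91 and 6.30, the second largest difference between arrays among the members. Rpl39, a small protein of the tunnel, was just under background with 5.51 and 5.49 in its own set, which could not be placed. A set that it shares with Gm11694 and Gm15067 read 6.45 and 6.72, above background. For Rpl39 too the call thus depends on whether a shared set is counted.

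At the mouth of the tunnel sit proteins that meet the new chain and the signal recognition particle. Rpl23a read 10.24 and 10.28. Rpl19 read 9.56 and 9.56 as the mean of sets at 7.18 and 11.935. Rpl26 read 6.86 and 6.92, and Rpl35 read 7.23 and 7.27. The mean of Rpl35 hides sets at 4.16, 6.69 and 10.90, so no single level can be given for it.

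Near the peptidyl transferase centre, where the peptide bond is made, Rpl8 read 10.15 and 10.27. Rpl3, which reaches into the same centre, read 7.17 and 7.02 as the mean of sets at 5.53, 6.20 and 9.56. Among the rest of the large subunit, Rpl28 read 12.40 and 12.50 from a single set, which lies away from the gene. Rpl6 was above background on replicate 2 alone, with 5.58 and 5.88, and Rpl30 was just above it with 5.76 and 5.75.

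In the platform and body of the small subunit all 12 measured members were above background, against 60.3% of all named genes. They ranged from 6.01 for Rps14 to 12.41 for Rps6. Over the out-of-tissue threshold were 10 of them (83.3%, against 38.2% of all named genes). Of these, Rps23, Rps27, Rps4x and Rps9 passed with a set at the gene, and Rps13 and Rps6 have no set there. The highest of 3 sets that Rps13 shares with other genes read 4.31 and 5.30, not above background. At the gene Rps24, Rps26 and Rps3a1 read 5.165, 4.05 and 5.645 on average, not above background, and Rpsa read 6.985, short of the out-of-tissue threshold. Rpsa, which doubles as a laminin receptor precursor, read 8.84 and 8.76 as the mean of sets at 6.985 and 10.61. Rps6 read 12.48 and 12.35 from a single probe set, which lies away from the gene as described below. In the head, which swivels as the messenger moves, 9 of 11 members were above background (81.8%, against 60.3% of all named genes). Over the out-of-tissue threshold were 6 (54.5%, against 38.2%). Of these 6, Rps19 and Rps28 read 6.06 and 4.79 on average in their sets at the gene, short of that threshold. Rps15, with 5.20 and 5.46, and Rps20, with 4.33 and 4.57, were not above background on either array. Rps16, whose tail reaches towards the decoding site, was above it by 0.03 units on replicate 1 and by 0.47 on replicate 2.

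All 14 measured genes of Diamond-Blackfan anaemia, an inherited failure of red cell production caused by loss of 1 copy of a ribosomal protein gene, were above background. Of these, 8 passed the out-of-tissue threshold, and their median was 7.37. Rpl11 was near background on replicate 2, 0.12 units over it. Rpl15 read 11.58 and 11.62, from a set that lies elsewhere than the gene. These calls rest on gene means, and several change with the sets at the gene alone. There Rps10 and Rps27, at 7.55 and 7.27 on average, stayed over the stricter threshold. Rps19 and Rpl27 fell short of it in their sets at the gene, with 6.06 and 5.9. Rps24, Rps26, Rps28 and Rpl35 averaged 5.165, 4.05, 4.79 and 4.16 at the gene, not above background. Of all named genes 60.3% were above background and 38.2% over the out-of-tissue threshold, and the list overlaps those of the subunits.

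Of the 9 genes outside the standard set, Rpl6l was the 1 that passed the out-of-tissue threshold. Rpl10l, which replaces the X-linked Rpl10 in male germ cells, read 3.63 and 3.68 and was not above background. Rpl3l, the form of Rpl3 made in striated muscle, read 5.63 and 5.73, at most 0.07 units over the thresholds. Rpl39l, another form known from the testis, was above background on replicate 1 alone, with 6.24 and 5.59. None of these 3, whose main sites of expression lie outside the brain, passed the out-of-tissue threshold, and Rpl39l was 0.63 units over background on replicate 1.

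Of the others, Rpl32l read 3.31 and 3.58 and was not above background. Rps4l read 6.59 and 6.48, beside 10.43 and 10.32 for Rps4x. Rps27l, a p53 target, read 7.18 and 7.34, beside 7.29 and 7.25 for Rps27 in its own set. A set that Rps27 shares with Rps27rt read 11.20 and 10.99. Rpl7l1, a factor of ribosome assembly, read 7.13 and 6.88, beside 7.81 and 7.75 for Rpl7, the mean of sets at 5.765 and 9.79. Rpl6l read 9.99 and 9.98, beside 5.58 and 5.88 for Rpl6. Within each of these pairs the values are set side by side and were not ranked.

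The array reads many of these genes more than once. More than 1 probe set was present for 25 of 67 members (37.3%), against 4.88% of all named genes. Rps12 had the most, 8 sets, 6 of which carry the same values (10.19 and 10.23). The sets of Rpl23a and of Rps19 also include such duplicates. The share of members with sets on different sides of background, 8 of 25 (32.0%), was below the 43.2% of all 1082 genes with several sets. These 8 were Rpl3, Rpl35, Rpl9, Rps18, Rps24, Rps26, Rps28 and Rps3a1. The sets of Rpl9 averaged 5.11 and 8.65, those of Rps24 5.165, 9.28 and 9.01, and those of Rps3a1 5.645 and 9.76. The distance between sets was wide, however: the highest and lowest set differed by more than 3 log2 units in 19 of 25 members (76.0%), against 33.2% of those 1082 genes. The median distance was 4.02 for members and 2.14 for all genes with several sets.

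The place of a probe set went with its value. Probe set numbers run along the chromosomes on this array (98.4% of 23325 neighbouring named sets lie on the same chromosome), so each set was placed by the 10 named sets on either side, a step chosen after the data were seen. Of 98 member sets that could be placed, 37 (37.8%) lay elsewhere than the gene they are named for, against 1.35% of all placed sets. The share was 1 of 74 (1.35%) for mitochondrial ribosomal proteins and 0 of 65 for translation factors. Counting sets with the same values once, the 61 sets at the gene had a median of 6.73, with quartiles of 5.76 and 7.55, and 47 of them (77.0%) were above background. The 30 sets elsewhere had a median of 10.71, with quartiles of 9.57 and 11.78, and all 30 were above background. Of the sets at the gene 18 (29.5%) passed the out-of-tissue threshold, and of those elsewhere 27 (90.0%). By their means 38.2% of all named genes passed it. Of the sets of all genes placed at their gene 60.3% were above background, and of other genes' sets elsewhere 63.0%. Among other genes the sets elsewhere were less far from those at the gene, with medians of 7.33 for 265 sets and 6.35 for 22086 sets.

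Within genes the order was the same. Of 19 members with sets in both places, the set elsewhere (or the mean of such sets) was higher on both arrays in 17, and the median difference was 3.69 log2 units. For other genes with both kinds of set, the set elsewhere was higher in 44 of 68 (64.7%), with a median difference of 0.96. Rps26, a small subunit protein at the messenger exit, read 4.0 and 4.10 at the gene and 10.85 and 10.91 elsewhere. Rps28 of the head read 4.77 and 4.81 at the gene and 10.33 and 10.48 elsewhere. Rpl21 of the large subunit read 7.14 and 7.38 at the gene, and its sets elsewhere averaged 12.82 and 12.71. On both arrays the sets elsewhere of these 3 genes were the higher ones.

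Elsewhere the order was turned or the gap small. Rplp1 read 11.83 and 11.90 at the gene and 7.13 and 6.64 elsewhere. Rps12 read 10.22 and 10.32 at the gene, against a mean of 9.59 and 9.60 elsewhere. Rps18 read 5.11 and 5.08 at the gene and 5.73 and 5.75 elsewhere, the smallest of the gaps in favour of the set elsewhere. Sets of a gene differ in their probes and so in how strongly they bind. Whether a set elsewhere reads the messenger of the named gene, a transcribed copy, or both was not tested.

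**Figure D3:**
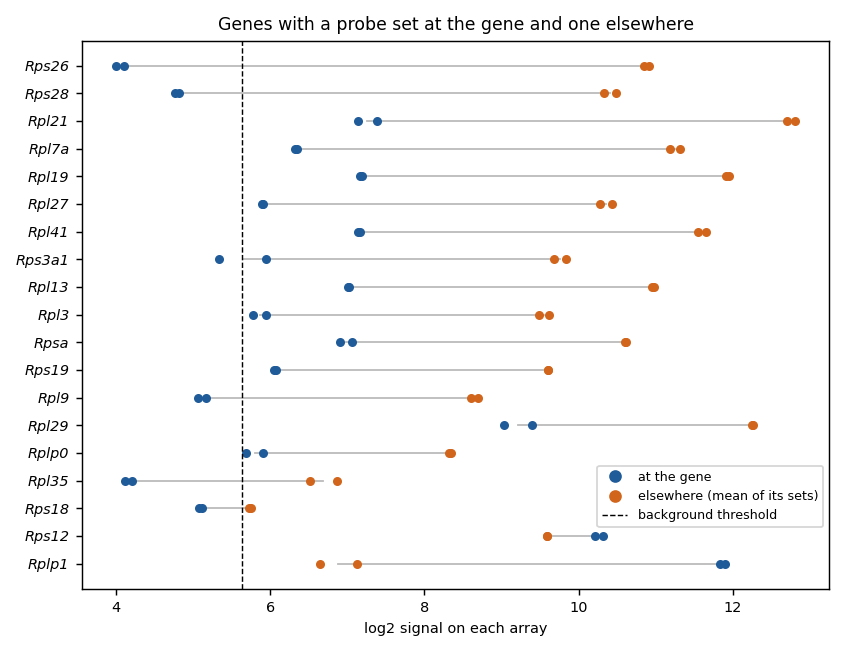
Log2 signal on each array (horizontal axis) of the 19 members with a probe set at the gene (blue) and one or more elsewhere (orange, mean of its sets); grey lines join the means and the dashed line is the background threshold, the mean over both arrays. The orange points lie to the right of the blue ones in 17 genes and to the left in Rps12 and Rplp1.

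Some members rest on such sets alone. All sets of Rpl15, Rpl23a, Rpl28, Rps13 and Rps6 lay elsewhere, and those of Rpl39, Rps20 and Rps4l could not be placed. With the sets at the gene alone, 46 of 59 members (78.0%) were above background, against 60.3% of all named genes. Under this choice Rpl35, Rpl9, Rps18, Rps24, Rps26, Rps28 and Rps3a1 were no longer above it. Rpl22 has its set at the gene, and its mean of 6.73 equals the median of the 61 sets at the gene.

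The members with a set at the gene over the out-of-tissue threshold are Rpl10a, Rpl14, Rpl29, Rpl32, Rpl38, Rpl4, Rpl8, Rplp1 and Rpl6l in the large subunit or among its paralogues, and Rps10, Rps12, Rps23, Rps25, Rps27, Rps3, Rps4x and Rps9 in the small subunit. Rpl38, known for its part in the translation of Hox messengers in the mouse embryo, read 11.44 and 11.54 there. Rpl14 read 10.44 and 10.43, and Rpl32 read 10.25 and 10.52. Of the small subunit, Rps3, which sits at the messenger's entry and also has a role in DNA repair, read 10.23 and 10.28. Rps25, needed by several viral entry sites on messengers, read 8.53 and 8.62. Rps9 has its sets at the gene alone, with 9.69 and 9.68 in one and 7.99 and 7.93 in the other, so sets at the same gene also differ by more than the spread between arrays.

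Probe sets that name several genes were not used for the values above. A ribosomal protein was named in 57 of them, with a median of 7.92. Of these, 49 were above background and 33 over the out-of-tissue threshold, beside 60.3% and 38.2% of all named genes. Of the 80 standard proteins, 59 had a set of their own, 12 were named in shared sets alone and 9 were not analysed here. The 59 are 58 members and Fau, the small subunit protein made as a fusion with a ubiquitin-like domain, which read 9.18 on average. The 12 are Rpl10, Rpl12, Rpl13a, Rpl23, Rpl24, Rpl31, Rpl35a, Rpl36, Rpl36a, Rps2, Rps15a and Rps21. Rpl10, which completes the peptidyl transferase centre, read 11.13 and 11.19 in 1 of its sets and 2.58 and 2.44 in another, which is also named for the small nucleolar RNA gene Snora70.

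For 20 members a shared set stood beside their own. The highest shared set was higher than the highest own set in 12 of them, and by more than 3 log2 units in 8. Rpl30 read 5.76 and 5.75 in its own set and 10.90 and 10.98 in a set shared with the predicted gene Gm12191. Rpl27a of the large subunit read 6.69 and 6.74 in its own and 11.61 and 11.54 in the shared set. The other 6 were Rpl26, Rpl34, Rpl37a, Rplp2, Rps16 and Rps27. The reverse held for Rps6, whose shared set with its pseudogene Rps6-ps4 read 6.32 and 6.39.

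Of the 32 members not above the out-of-tissue threshold by their mean, 4 had an own set above it and 7 more a shared set above it. The remaining 21, Rpl22 among them, had neither. Sets that name a ribosomal pseudogene alone numbered 15, of which 7 were above background, beside 60.3% of all named genes. These 15 sets ran from 2.38 and 2.47 for Rpl17-ps10 to 10.92 and 10.99 for Rpl31-ps20.

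The arrays repeated each other closely for the members. The difference, replicate 2 minus replicate 1, had an SD of 0.188 log2 units over the 67 members and 0.218 over all named genes. Over genes above background it was 0.167 for members and 0.149 for all. Members with a signal of 9 or more had an SD of 0.11 (20 genes), and those under 9 one of 0.213 (47 genes). A difference of more than 0.5 units was seen in 2 of 67 members (2.99%), against 3.39% of all named genes. These were Rpl39l, which dropped by 0.65, and Rpl17, which dropped by 0.61 from replicate 1 to replicate 2. Rps16 followed with a rise of 0.49, then Rpl37, a zinc-binding large subunit protein, with a drop from 6.38 to 6.01. Rps13 of the small subunit rose from 7.72 to 8.07. There was no common shift: 37 members were higher on replicate 2 and 30 on replicate 1, with a median difference of 0.04. This spread measures labelling and hybridisation and any earlier step repeated, not the variation between mice.

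**Figure D4:**
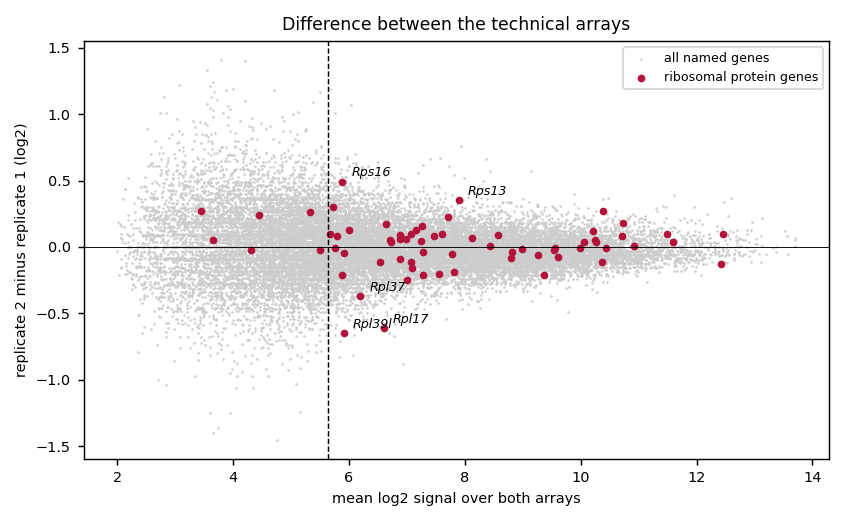
Difference between the technical arrays (replicate 2 minus replicate 1, log2, vertical axis) against mean log2 signal over both arrays (horizontal axis); grey points are all named genes and red points the 67 members, with the 5 largest differences named. The red points lie within the grey cloud, and the spread narrows with signal, with an SD of 0.213 for members under 9 and 0.11 for those at 9 or more.

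The machinery that builds ribosomes and controls these messengers was measured beside the members. Of all named genes 60.3% were above background and 38.2% over the out-of-tissue threshold, with a median of 6.36. All 30 measured assembly factors were above background and 26 above the out-of-tissue threshold, with a median of 8.62. They ran from Nmd3, which exports the large subunit from the nucleus, at 6.77 and 6.61, to Ubtf, which activates the ribosomal RNA genes, at 10.26 and 10.21. Of the genes that control the translation of ribosomal protein messengers, 13 of 14 were above background and the median was 9.15. Larp1, which binds the oligopyrimidine start, read 10.82 and 10.73, and Mtor read 10.09 and 10.07. Pabpc1, the main cytoplasmic poly(A)-binding protein, was the exception with 5.58 on both arrays. All 7 measured proteins that work on the ribosome passed the out-of-tissue threshold, among them the elongation factor Eef2 with 12.55 and 12.53.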

How the data were processed

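Ribosome-bound RNA was labelled with the Affymetrix WT Plus kit, per the labels' protocols. The deposited values, 1 for each probe set on each array, were read as log2 signals from their range. How the authors corrected background, summarised and normalized is not given in the sources used here. Both samples were used (1 group, 2 technical arrays, Pearson's r 0.9941 across probe sets), and precision is limited by the number of arrays. Of 34472 probe sets, 23521 named 1 gene, 1814 several and 9137 none here. A RefSeq table of GRCm38.p6 changed 0 symbols.

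Gene values are means of probe sets, taken with pandas 2.3.3 in Python 3.11.15, and intervals came from scipy 1.17.1. A probe set counted as at its gene where at least 75% of its flanking named sets lay on the gene's chromosome, spanned at most 20 Mb between quartiles, and lay at a median of at most 5 Mb from the gene. It counted as elsewhere where they formed a compact group away from it, and as not placed otherwise. Named with their values were the members not above background, those with probe sets on different sides of it, Rpl22, every paralogue, the members of the stalk, 5S particle, tunnel and peptidyl transferase lists, Rpsa, Rps6 and the 5 largest differences between arrays. Rps27a, also in that rule, was not analysed here, and others were chosen after their values were seen. The members and lists were chosen with earlier results of these data known. Calls and placement were tested on simulated data. Protein sequences were not used here, so the identity of paralogues was not computed.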

Additional observations from a re-analysis of the deposited data

How the results depend on the processing

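Of 67 members 59 (88.1%) were above background, against 60.3% of all named genes, whose share under each setting follows in the same way. The count was 48 (71.6%, against 45.0%) with background at the 99th percentile and 54 (80.6%, against 57.5%) at the median of all probe sets. It stayed 59 with the highest probe set (against 60.8%) and with quantile normalization (against 60.3%). Counting sets of equal values once, chosen after the data were seen, also gave 59 (against 60.3%). At the out-of-tissue threshold it fell to 35 of 67 (52.2%, against 38.2%), the large subunit proteins to 18 of 35, and the small subunit proteins to 16 of 23. With genes of 1 probe set, where fewer genes are tested, it was 35 of 42 (83.3%, against 59.8%), with 17 of 20 large and 12 of 13 small subunit proteins. Without either replicate it was 60 (89.6%), with 32 to 33 large subunit proteins and 21 small subunit proteins. The share of all named genes was 61.7% without replicate 1 and 62.5% without replicate 2. Shared probe sets that name ribosomal genes alone gave 62 of 71 (87.3%, against 60.3%), and sets at the gene, also chosen later, 46 of 59 (78.0%, against 60.3%). Of 38 named members, 17 lost their call at the out-of-tissue threshold, 8 at the 99th percentile, 4 at the median of all probe sets and 7 with sets at the gene. Rpl6 gained one without replicate 1 and Rpl39l without replicate 2. The out-of-tissue threshold rests on 32 genes. The oligopyrimidine share was 17.3% with runs of at least 6 after the C and 42.3% within 5 bases of the start. The median difference between arrays lay between -0.01 and 0.045 under the alternatives tried. No paired analysis was possible because there is 1 group. Signal over background limits every call on a member within 0.5 units of the threshold, and no measure of depth exists for arrays.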
